A study of Akebia trifoliata with 9 samples.

Results

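A set of 193 leaf transcripts of Akebia trifoliata, out of 82321 in the deposited table, was low in leaves sprayed with simulated acid rain alone. It stood near its distilled water level in leaves of plants given curcumin at the roots under the same spray. The set was chosen on measured values. A transcript entered it only if its highest value under acid rain alone lay below all 6 values of the other groups. Its mean under distilled water had to be at least 5 TPM. Its mean under acid rain alone had to lie at least 1.5-fold below the smaller of the other group means. Those other means had to lie within 1.5-fold of each other. All folds used the group mean plus 1 TPM. TPM, transcripts per 1000000, gives each transcript's length-corrected share of a library. The set never reached the rule's limit of 300 transcripts, so no member was removed for its rank. Because all 3 comparisons between groups went into the choice, the differences between groups in these transcripts are a description and carry no test.

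Akebia trifoliata is a woody vine grown for its fruit and used as a medicinal plant. Total RNA of leaves was sequenced from 9 libraries in 3 groups of 3, at the end of a treatment of 28 days. Control plants got distilled water both at the roots and as the leaf spray. In CUR0 the leaf spray was simulated acid rain of pH 2.0 and the root solution held 0 µmol/L of curcumin. In CUR50 the leaf spray was the same acid rain and the root solution held 50 µmol/L of curcumin. CUR50 and CUR0 therefore share the acid rain, and no group analysed here had curcumin without acid rain. The plants were cuttings from 1 nursery collection. The number of plants per treatment in the labels differs from the number of replicates, so whether a library is 1 plant or a pool is unclear, and the SDs given here may hold technical spread.

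Acid deposited on leaves is known to damage the cuticle, to leach mineral nutrients and to acidify the tissue, and plants meet it with antioxidant enzymes, ion and proton transport and repair of the photosynthetic apparatus. Curcumin is the yellow polyphenol of turmeric rhizomes and is known as an antioxidant in test systems. The files give the transcripts only as assembly identifiers. The identifiers printed here end in a gene number with no isoform number, so transcript here means an assembled gene rather than an isoform. None of the identifiers matched the 32005 genes of the reference table of the assembly ASM1797944v1. No function, sequence or position could therefore be attached to a member, and the leaf label could not be checked against leaf marker genes.

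The sequencing depth is unknown, because TPM keeps no read number, and no counting error is attached to any value. The libraries were not on one level. Against the mean of the Control libraries, the median of the tested transcripts, the 31754 that reached 1 TPM in 3 or more libraries, stood at -0.01, -0.18 and -0.10 on the log2(TPM + 1) scale in CUR0 replicates 1, 2 and 3. It stood at -0.10, 0.06 and 0.10 in CUR50 replicates 1, 2 and 3. The most abundant transcript was taken separately in each library and need not be the same throughout. Its share was 8.61% ± 0.61 in the Control libraries, 12.2% ± 1.4 in the CUR0 libraries and 7.504% ± 2.21 in the CUR50 libraries (SD, n = 3). This share was highest, at 13.7%, in CUR0 replicate 2. CUR50 replicate 1, where the share was 10.03%, stood lower on the log2(TPM + 1) scale than the other CUR50 libraries. The shifts of the CUR0 libraries have the direction of the dip, and counts under other scalings stand beside the members' counts.

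The 193 transcripts were low in each of the 3 CUR0 libraries, under acid rain without curcumin. Their median level was 16.7, 16.8 and 16.3 TPM in Control replicates 1, 2 and 3. In CUR0 it was 9.14, 6.76 and 7.65 TPM in replicates 1, 2 and 3. In CUR50 it was 15.8, 14.3 and 18.7 TPM. The 3 CUR0 medians lay below all 6 others, as the rule requires of every member, and the CUR50 medians lay on both sides of the Control medians.

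**Figure D1:**
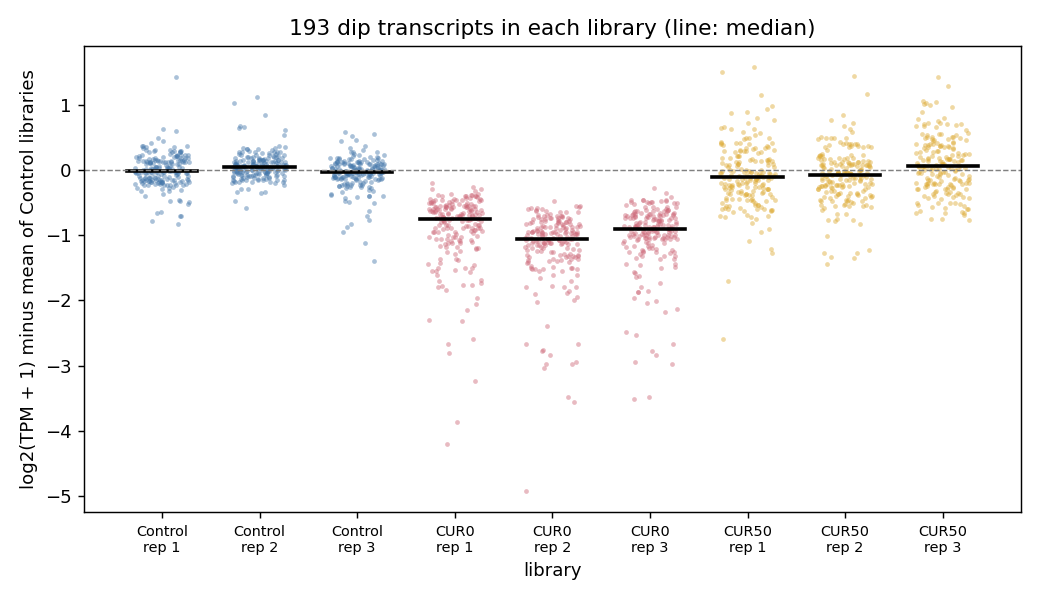
Each point is 1 of the 193 dip transcripts in 1 library, plotted as log2(TPM + 1) minus the mean of the 3 Control libraries of that transcript, with a black line at the median of each library. The medians are -0.74, -1.06 and -0.91 in CUR0 replicates 1, 2 and 3 and between -0.11 and 0.06 in the CUR50 libraries.

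Summed over members, the share of a library was 0.710% ± 0.027 for Control, 0.366% ± 0.035 for CUR0 and 0.712% ± 0.051 for CUR50 (SD, n = 3). The library sums were 6966, 7415 and 6920 TPM in Control, 4009, 3314 and 3651 TPM in CUR0, and 6544, 7331 and 7495 TPM in CUR50. The CUR0 sums lay below all others, which the rule fixes in advance, because every member had to be lowest in CUR0. The CUR50 sums overlapped the Control sums, and the rule had held these group means within 1.5-fold of each other in every member. Relative to the Control mean of each transcript, the median member stood at -0.74, -1.06 and -0.91 in the CUR0 libraries on the log2(TPM + 1) scale and at -0.11, -0.08 and 0.06 in the CUR50 libraries. The shift of all tested transcripts, given above, was far smaller than the members' value in each CUR0 library but ran in the same order, with replicate 2 lowest and replicate 1 highest.

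Most members dipped by a small amount. The fold from Control to CUR0, on means plus 1 TPM, had a median of 1.87, with the middle part of the members between 1.64 and 2.24. The rule's own ratio, which takes the smaller of Control and CUR50 over CUR0, ran from 1.502 to 14.3 with a median of 1.68. It was under 1.6 in 65 members (33.7%), at least 2 in 48 (24.9%), at least 3 in 17 and at least 5 in 9. The set is therefore a small group of deep dips with a long tail of transcripts close to the threshold.

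The members near the threshold show how little separates them from transcripts left out. The member with the smallest ratio, 1.502, had 14.5, 15.3 and 17.7 TPM in Control, 11.7, 7.71 and 11.2 TPM in CUR0 and 14.6, 22.7 and 16.8 TPM in CUR50. The nearest transcript outside, with a ratio of 1.499, had 36.9, 40.5 and 33.6 TPM in Control, 29.5, 16.6 and 27.0 TPM in CUR0 and 40.6, 47.2 and 51.4 TPM in CUR50. Both had the same form, with CUR0 replicate 2 lowest. At the level threshold, the member with the lowest Control mean was at 5.01 TPM and the nearest excluded transcript at 4.95 TPM. At the return threshold, Control was 1.499-fold above CUR50 in the member nearest the limit and 1.504-fold above it in the nearest transcript outside.

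The members were spread over the whole range of abundance above the minimum. By Control mean, 55 had 5 to 10 TPM, 51 had 10 to 20, 47 had 20 to 50, 23 had 50 to 100 and 17 had 100 TPM or more. The members were between 1.2% and 1.63% of all transcripts of the same level in each of the 5 classes. The median ratio was between 1.65 and 1.73 in all 5 classes. Ratios of at least 2 were found in 21 of the 55 members at 5 to 10 TPM and in 2 of the 17 at 100 TPM or more. The deepest dip among those 17 had a ratio of 2.16.

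The most abundant member had 643, 804 and 630 TPM in Control, 429, 338 and 408 TPM in CUR0, and 532, 729 and 531 TPM in CUR50. Its highest CUR0 value lay below every value of the other groups, and 2 of its CUR50 values lay below the Control range. The next in abundance had 251, 273 and 298 TPM in Control, 223, 136 and 183 TPM in CUR0, and 312, 612 and 296 TPM in CUR50. Its mean in CUR50 rested on replicate 2, which stood far above the other CUR50 libraries.

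At the other end, 8 members were listed at 0 in at least 1 CUR0 library, and 1 of them was listed at 0 in all 3. That transcript had 4.72, 12.8 and 2.28 TPM in Control and 18.0, 2.15 and 4.18 TPM in CUR50. Without read numbers a listed 0 cannot be given a floor, and no fold is given for it.

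A few members are named here by identifier, the 2 with the largest fold from Control to CUR0 and the 2 others with the largest fold from CUR0 to CUR50 among members with at least 20 TPM in Control and in CUR50. TRINITY_DN5463_c0_g2 had 26.6, 26.1 and 36.5 TPM in Control, 1.08, 0 and 1.72 TPM in CUR0, and 22.9, 28.6 and 23.0 TPM in CUR50. It had the widest empty gap of all members between CUR0 and the other libraries. Its lowest value outside CUR0, plus 1 TPM, was 8.77 times its highest CUR0 value plus 1 TPM. The fitted difference in log2(TPM + 1) was -4.09 ± 0.33 (SE) for CUR0 minus Control and 3.85 ± 0.33 for CUR50 minus CUR0. With CUR0 values this near 0 the pseudocount sets the size, and with a pseudocount of 0.1 in place of 1 the differences were -5.62 ± 0.92 and 5.37 ± 0.92.

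TRINITY_DN3387_c0_g1 had the largest ratio, 14.3, and was far less even. It had 73.5, 54.3 and 26.3 TPM in Control, 1.62, 3.10 and 3.23 TPM in CUR0, and 6.98, 130.5 and 62.4 TPM in CUR50. CUR50 replicate 1 was near the CUR0 values, while the other CUR50 libraries were at or above most Control values. The difference for CUR50 minus CUR0 was 3.51 ± 0.90 (SE) with all libraries and 4.68, 2.66 and 3.18 without CUR50 replicate 1, 2 and 3.

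TRINITY_DN1575_c0_g1 had 29.1, 33.1 and 27.7 TPM in Control, 2.27, 3.56 and 4.37 TPM in CUR0, and 39.8, 38.6 and 24.8 TPM in CUR50. Its CUR50 values lay on both sides of the Control range, and its gap to CUR0, 4.80-fold, was the second widest among the members. TRINITY_DN14357_c0_g1 had 54.3, 60.9 and 17.1 TPM in Control, 6.94, 2.53 and 8 TPM in CUR0, and 56.3, 14.6 and 43.8 TPM in CUR50. Control replicate 3 and CUR50 replicate 2 stood well below the others of their groups, and its gap to CUR0 was 1.73-fold.

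**Figure D2:**
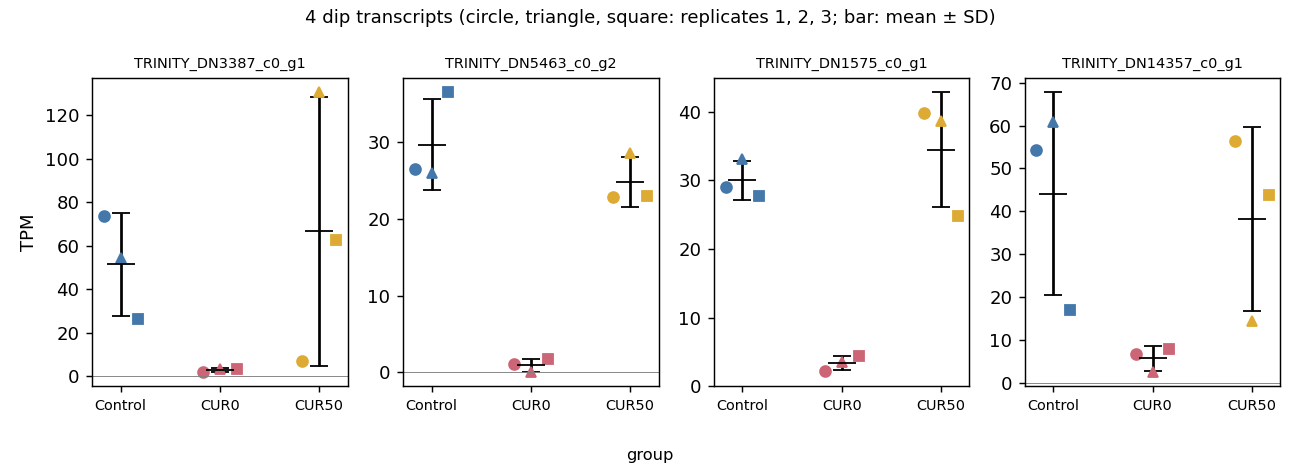
TPM of the 4 named dip transcripts in Control, CUR0 and CUR50, with circles, triangles and squares for replicates 1, 2 and 3 and bars for the mean ± SD (n = 3), each panel on its own scale. TRINITY_DN5463_c0_g2 and TRINITY_DN1575_c0_g1 are tight in Control, and TRINITY_DN3387_c0_g1 runs from 6.98 to 130.5 TPM within CUR50.

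A wide gap like those of TRINITY_DN5463_c0_g2 and TRINITY_DN1575_c0_g1 was uncommon. Over all members, the lowest value outside CUR0 stood a median of 1.23-fold above the highest CUR0 value, both plus 1 TPM, and the gap reached 1.5-fold in 24 of the 193 (12.4%). Among all tested transcripts 6.66% had all CUR0 values below the 6 other libraries, and among the 14598 of them with a Control mean of at least 5 TPM it was 11.3%. Absence of overlap was itself part of the choice, so nothing is read from it for the members.

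Many more transcripts were lower in CUR0 than came back in CUR50. Of the 14608 transcripts with a Control mean of at least 5 TPM, 4938 had all CUR0 values below all Control values, and 1680 of these were also at least 1.5-fold lower by their means. In CUR50, 933 of the 1680 (55.5%) were still more than 1.5-fold below Control, 709 (42.2%) lay within 1.5-fold of it and 38 (2.26%) lay more than 1.5-fold above it. Of the 709, 300 were also at least 1.5-fold above CUR0 by their means, and 193, or 11.5% of the 1680, had no overlap with CUR0. The other 409 of the 709 lay close to both groups at once, since a dip of little more than 1.5-fold can end between them. After median-of-ratios scaling the dip numbered 97 of 1237, or 7.84%, and 64.6% of the 1237 were still low in CUR50.

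**Figure D3:**
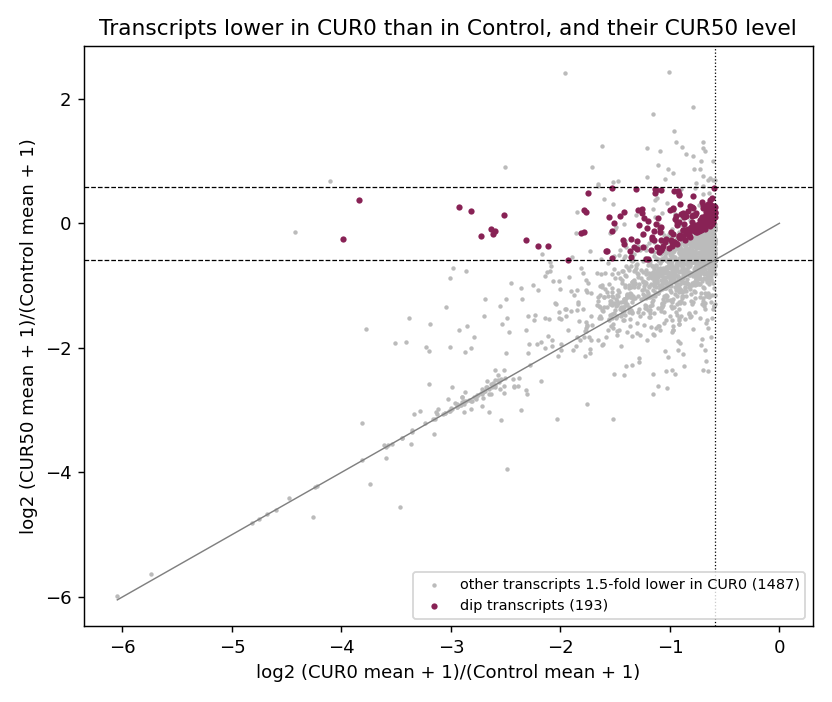
Each point is 1 of the 1680 transcripts at least 1.5-fold lower in CUR0 than in Control with no overlap, with log2 of CUR0 over Control on the horizontal axis and log2 of CUR50 over Control on the vertical axis, both on group means plus 1 TPM. Dashed lines mark 1.5-fold around Control, the dotted line the 1.5-fold drop, and the diagonal equal CUR0 and CUR50; the 193 dip transcripts lie between the dashed lines, and 933 transcripts lie below them.

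With the same thresholds, 722 transcripts were low in both CUR0 and CUR50, with a median of 15.9 TPM in Control, against 16.4 TPM for the dip transcripts. Their median fold from Control to CUR0 was 2.15, against 1.87 for the dip transcripts, and 60.1% of them against 36.8% were at least 2-fold lower. The contrast depended on the scaling. Without the 10 most abundant transcripts the median folds were 2.17 against 1.92, and the shares at least 2-fold lower were 60.4% against 44.9%. After median-of-ratios scaling the median folds were 2.10 against 2.01 and the shares 57.1% against 51.5%. After quantile normalization the median folds were 2.08 against 2.08, and the shares, 55.0% against 57.8%, had the other order. These sets were chosen on the same values, and the dip carries an added condition on CUR50, so the difference was not tested.

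The return in CUR50 was even in some members and rested on single libraries in others. The CUR50 mean was above the Control mean in 92 members and below it in 101, and the median fold of CUR50 over Control was 0.993. In 133 members (68.9%) the means lay within 1.2-fold of each other, which is closer than the rule asks. All 3 CUR50 libraries, taken singly, lay within 1.5-fold of the Control mean in 121 members (62.7%). In 47 members 1 CUR50 library lay outside that range, in 22 members 2 did, and in 3 members all 3 did. All 3 CUR0 libraries lay at least 1.5-fold below the Control mean in 131 members (67.9%), and 69 members (35.8%) met both of these stricter conditions.

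The CUR50 libraries differed in where they placed the members. Replicate 1 was below the whole Control range in 83 members, inside it in 60 and above it in 50. Replicate 2 was below it in 68, inside in 82 and above in 43, and replicate 3 was below in 54, inside in 70 and above in 69. Replicate 1 was the lowest CUR50 library in 40.9% of the members, against 58.3% of all tested transcripts with a Control mean of at least 5 TPM. Replicate 2 was the lowest in 38.3% against 23.9%. The rule removes transcripts with a low value in any CUR50 library, so these shares are not independent of it.

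The order within CUR0 was closer to that of all transcripts. Replicate 2 was the lowest CUR0 library in 119 members (61.7%), and it was so in 53.9% of all tested transcripts at that level. Replicate 1 was the highest in 114 members (59.1%), against 58.8%. Replicate 1 was at least 1.5-fold below the Control mean in 141 members, replicate 2 in 189 and replicate 3 in 172. Replicate 1 thus held the shallowest dip and replicate 2 the deepest, the same order as the shift of the whole libraries.

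By the median SD, the members were less even within groups than all tested transcripts with a Control mean of at least 5 TPM, and about as even as tested transcripts of any level. The median SD of log2(TPM + 1) over the members was 0.18 within Control, 0.24 within CUR0 and 0.30 within CUR50. Over all tested transcripts it was 0.18, 0.21 and 0.32, and over those of at least 5 TPM in Control it was 0.12, 0.14 and 0.22. The highest value of a group was at least 2 times the lowest in 17 members within Control, 28 within CUR0 and 44 within CUR50. These were 8.81%, 14.5% and 22.8% of the members, against 5.70%, 8.19% and 18.9% of tested transcripts of at least 5 TPM in Control. CUR50 was thus the least even group for the members, as it was for all transcripts.

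The rule was also applied to 8 libraries, and the one left out, which this choice did not use, was then read. The left-out value is compared with values that the rule did select, picked high in Control and CUR50 or low in CUR0, so part of the excess over all transcripts comes with the choice itself. Without CUR0 replicate 1, 467 transcripts met the rule and the 300 largest ratios were kept. In 177 of these 300 (59.0%) the left-out library was below all 6 Control and CUR50 values, against 15.4% of all transcripts with a Control mean of at least 5 TPM. Without CUR0 replicate 2 it was 151 of 161 (93.8%, against 38.5%), and without CUR0 replicate 3 it was 189 of 228 (82.9%, against 29.2%). The background share was lowest for replicate 1 and highest for replicate 2.

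The left-out libraries met the 1.5-fold drop to different degrees. The left-out CUR0 value was at least 1.5-fold below the smaller of the other group means in 35.0%, 83.9% and 66.7% of the transcripts chosen without replicates 1, 2 and 3, against 3.40%, 9.10% and 5.25% of all. For CUR50, the left-out value was above the highest CUR0 value in 184 of 300 (61.3%), 179 of 220 (81.4%) and 181 of 214 (84.6%) of those chosen without replicates 1, 2 and 3. The shares over all transcripts were 38.7%, 57.5% and 61.0%. It was at least 1.5-fold above the CUR0 mean in 38.7%, 54.1% and 66.4%, against 9.76%, 12.01% and 18.9%. For Control the left-out value was above the highest CUR0 value in 93.3%, 97.4% and 90.8%, against 46.0%, 48.7% and 47.1%.

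**Figure D4:**
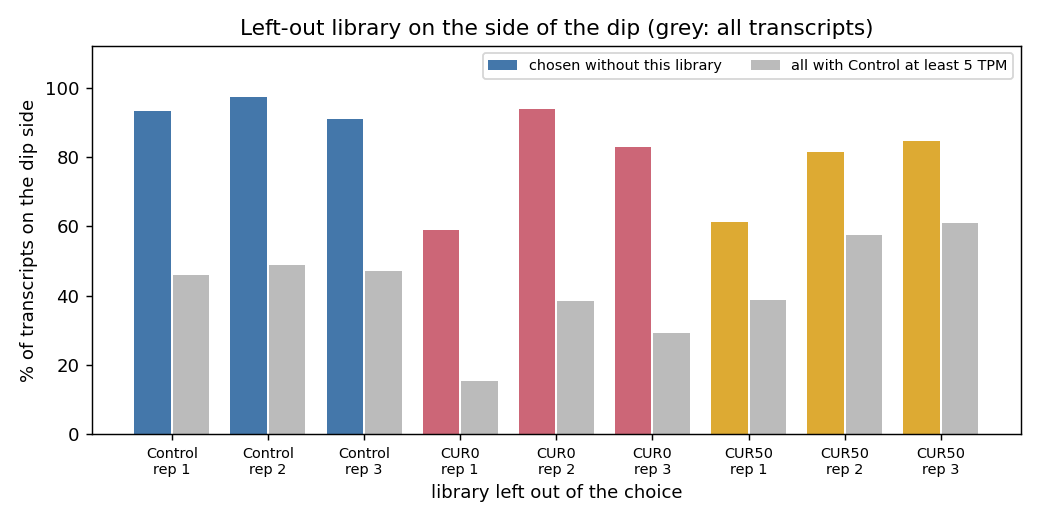
Coloured bars give the percentage of transcripts, chosen by the rule without the library on the horizontal axis, whose value in that library lay on the side of the dip (below the 6 Control and CUR50 libraries for CUR0, above the highest remaining CUR0 value for Control and CUR50). Grey bars give the same percentage for all transcripts with a Control mean of at least 5 TPM, and they are lower than the coloured bar for each of the 9 libraries; CUR0 replicate 1, at 59.0%, and CUR50 replicate 1, at 61.3%, have the lowest coloured bars.

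Both libraries with the lowest shares also set the size of the list. The rule gave 467 transcripts without CUR0 replicate 1 and 329 without CUR50 replicate 1, and between 161 and 228 without any 1 of the other 7 libraries. Of the 193 members, 161 were among the 300 kept without CUR0 replicate 1 and 151 among the 300 kept without CUR50 replicate 1. A condition of no overlap is easier to meet with fewer libraries, which also raises these counts.

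The number of members depended on how the libraries were scaled. Median-of-ratios scaling, which sets the typical transcript of each library to one level, left 97 transcripts that met the rule, of which 96 were members. Quantile normalization left 90, of which 87 were members, and removal of the 10 most abundant transcripts left 167, of which 144 were members. The 96 members that met the rule after median-of-ratios scaling had a median ratio of 1.94 in the deposited values, and 44 of them had a ratio of at least 2. The 97 members that did not had a median ratio of 1.57, and 4 of them had a ratio of at least 2. A core of 81 members met the rule with the deposited values and with all 3 other scalings.

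The mirror image, transcripts higher in CUR0 than in all 6 other libraries and back near Control in CUR50, was counted with the same thresholds and a CUR0 mean of at least 5 TPM. There were 128 of these with the deposited values, fewer than the 193 dip transcripts. The order was the other way with each of the other scalings, with 192 peaks beside 97 dips after median-of-ratios scaling, 212 beside 90 after quantile normalization and 194 beside 167 without the 10 most abundant transcripts. The peaks had a median of 4.27 TPM in Control and 10.9 TPM in CUR0, and their median fold was 2.26.

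**Figure D5:**
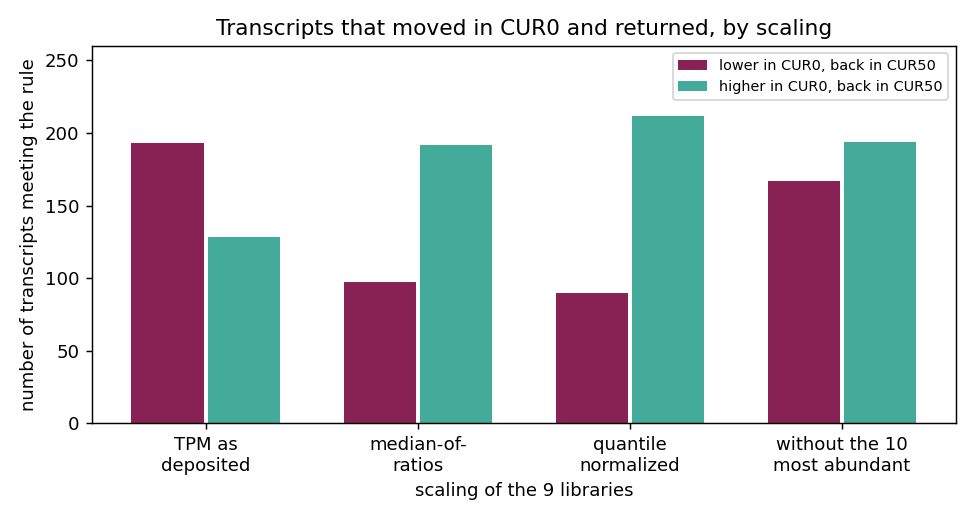
Number of transcripts that met the rule (dark red: lower in CUR0 and back in CUR50) or its mirror image (green: higher in CUR0 and back in CUR50) under 4 scalings of the 9 libraries. The dip falls from 193 to 97 and 90 with median-of-ratios and quantile scaling, while the mirror image goes from 128 to 192 and 212.

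All 193 members were among the tested transcripts. In limma fitted to all tested transcripts, 120 members (62.2%) were called lower in CUR0 against Control at an adjusted p under 0.05, beside 5.30% of all tested transcripts. In CUR50 against CUR0, 84 members (43.5%) were called higher, beside 2.57% of all. Both calls together were made for 71 members and neither for 60, and both calls held for 163 tested transcripts, or 0.513%. The rule used these contrasts, so the counts only show how far the rule and the fit choose the same transcripts. The 2 comparisons also share the CUR0 libraries.

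Both counts moved with single libraries. So did those over all 31754 tested transcripts, which were 1682 lower and 816 higher with all libraries. With a Control library left out, the count for CUR0 against Control was 61 (replicate 1), 46 (replicate 2) or 56 (replicate 3). With CUR0 replicate 2 left out it was 46, and with CUR0 replicate 3 left out it was 50. Over all tested transcripts, 939, 794 and 848 were called lower without Control replicates 1, 2 and 3. Without CUR0 replicates 2 and 3, 796 and 757 were called lower. The members' count for CUR50 against CUR0 was 37, 25 or 33 with Control replicate 1, 2 or 3 left out. Control enters it through the shared spread only. It was 56 without CUR0 replicate 1, 10 without CUR0 replicate 2, 11 without CUR0 replicate 3, 114 without CUR50 replicate 1 and 23 without CUR50 replicate 3. With only the 6 libraries compared it was 8. Over all tested transcripts, 302, 184 and 234 were called higher without Control replicates 1, 2 and 3, and 727 without CUR0 replicate 1. Without CUR0 replicates 2 and 3 there were 33 and 43, and without CUR50 replicates 1 and 3 there were 2457 and 128. With only the 6 libraries compared there were 53.

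In CUR50 against Control, 3 members were called, all lower in CUR50, beside 12.6% of all tested transcripts in either direction. The first had 28.6, 35.2 and 32.1 TPM in Control and 26.3, 23.0 and 20.9 TPM in CUR50, with 14.4, 13.3 and 13.2 TPM in CUR0. The second had 46.5, 45.4 and 50.5 TPM in Control and 32.2, 29.4 and 32.9 TPM in CUR50, and the third had 60.8, 52.9 and 43.2 TPM in Control and 31.5, 35.2 and 37.98 TPM in CUR50. In these 3, singled out after their values were seen, all CUR50 values lay above CUR0 and below the Control range. Over all members, CUR50 and Control overlapped in 172, all CUR50 values were below Control in 14 and all were above in 7, beside 14.9% and 17.1% of all tested transcripts. The rule limits this difference to 1.5-fold. The number called was 5 without CUR50 replicate 1, of which 1 was lower and 4 were higher, and 5 without CUR50 replicate 2, of which 3 were lower and 2 were higher. It was 1 without Control replicate 3, CUR0 replicate 2 or CUR50 replicate 3, and 0 without Control replicate 1 or 2, where limma gave 11 and 9 members an unadjusted p under 0.05. Over all tested transcripts, 2004 were called lower and 2647 higher without CUR50 replicate 1, and 2479 and 2404 without CUR50 replicate 2. Without Control replicates 1 and 2, 1198 and 1087 were called lower, and 810 and 785 higher.

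The assembly identifiers hold one further feature that the rule did not use. The assembler writes transcripts that share sequence under one cluster name, and such partners can be copies, alleles or fragments of the same gene. The 193 members came from 192 clusters. One cluster held a pair of members, with means of 52.7 and 37.6 TPM in Control, 29.8 and 22.3 TPM in CUR0 and 57.4 and 37.97 TPM in CUR50. Of the members, 102 were alone in their cluster and 91 shared it with at least 1 other transcript of the table.

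Of the partners that were not members, 93 were tested, and they belonged to 65 members. In 61 of the 93 (65.6%) the CUR0 mean was the lowest of the 3 group means, against 41.7% of all other tested transcripts and 42.8% of those that share a cluster. The CUR0 values lay below all 6 other libraries in 14 of the 93 (15.1%), against 6.07% of all others. The median difference of the partners in log2(mean TPM + 1) was -0.33 for CUR0 minus Control and 0.27 for CUR50 minus CUR0, against -0.09 and 0.14. After median-of-ratios scaling, CUR0 was lowest in 52 of the 93 (55.9%), against 29.8% of all others. Reads can be divided between similar sequences, so partners are not independent of the members they sit beside, and no test was made.

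The named transcripts with partners illustrate this. One partner of TRINITY_DN5463_c0_g2 had 84.1, 70.6 and 73.4 TPM in Control, 47.7, 43.9 and 55.4 TPM in CUR0, and 61.9, 65.5 and 64.3 TPM in CUR50. Its CUR0 values lay below all others, as in the member, but its dip was shallower and it did not return to the Control range. The other partner of TRINITY_DN5463_c0_g2 stayed low, at means of 3.58, 2.96 and 4.51 TPM in Control, CUR0 and CUR50. A partner of TRINITY_DN1575_c0_g1 was listed at 0 in all 3 CUR0 libraries, at 0.500, 1.12 and 5.48 TPM in Control and at 7.25, 3.76 and 1.28 TPM in CUR50. A further partner of TRINITY_DN1575_c0_g1 had means of 0.173, 0.0667 and 3.54 TPM in Control, CUR0 and CUR50. TRINITY_DN3387_c0_g1 and TRINITY_DN14357_c0_g1 were alone in their clusters.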

How the data were processed

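The authors deposited 1 table of TPM for 82321 identifiers and 9 leaf libraries; the unit was read from its columns, each of which sums to about 1000000. Tools listed in the submitters' processing notes are Bowtie2, DESeq2, RSEM and fastp, with no version; how the assembly was made is not given in the sources used here, and all identifiers have the form that the Trinity assembler writes. Table columns were assigned to libraries by title, where 2 Control columns lack a letter.

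The rule was applied to the deposited TPM. Differences were fitted with limma (trend, eBayes) on log2(TPM + 1), pseudocount 1, for the 31754 transcripts that reached 1 TPM in 3 or more libraries, with 1 mean per group, all 9 libraries sharing 1 spread estimate, and Benjamini-Hochberg adjustment over all of them within each comparison; the code was tested on simulated data. This scale understates changes of low transcripts. TPM values are shares, so a rise of abundant transcripts lowers the others. Named identifiers are the 2 members with the largest fold from Control to CUR0 and the 2 others with the largest fold from CUR0 to CUR50, with means of at least 20 TPM in Control and CUR50. The members, the rule and the comparisons were chosen with earlier results of these data known. No gene list could be applied without gene names. Alternatives were other scalings, filters, pseudocounts, thresholds, variance models, a replicate block and leaving out each library. R 4.3.3, limma 3.58.1, Python 3.11.15 and pandas 2.3.3 were used.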

Additional observations from a re-analysis of the deposited data

How the results depend on the processing

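The rule, met by 193 transcripts, was met by 97 after median-of-ratios scaling, 90 after quantile normalization, 48 with a drop of 2 in place of 1.5, 312 and 87 with a Control minimum of 1 and 20 TPM, 370 with no condition on overlap, and from 161 to 467 when 1 library was left out. It stayed within 1.5 times of 193 with the 10 most abundant transcripts removed, with a pseudocount of 0.1, with a closer return to Control and with TPM summed per cluster.

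Members called lower in CUR0 against Control, 120, numbered 181 with array weights per group and from 46 to 152 when 1 library was left out. Over all 31754 tested transcripts the lower calls went from 1682 to 3242 with array weights. They ran from 757 to 2670 when 1 library was left out. Members called higher in CUR50 against CUR0, 84, numbered 51 after quantile normalization, 24 with no filter, 144 with the filter of 5 TPM, 30 without the trend, 29 with array weights, 8 with only the 6 libraries compared and from 10 to 114 when 1 library was left out. Over all tested transcripts the higher calls were 816 of 31754. They went to 451 of 31595 after quantile normalization, 181 of 80482 with no filter and 1589 of 15803 with the filter of 5 TPM. They numbered 253 without the trend, 200 with array weights and 53 with only the 6 libraries compared. When 1 library was left out they ran from 33 to 2457. Members called in CUR50 against Control, 3, numbered 7 after quantile normalization, 5 without the 10 most abundant transcripts, 1 with only the 6 libraries compared, 0 with no filter, without the trend or with array weights, and from 0 to 5 when 1 library was left out. Over all tested transcripts, 2049 were called lower and 1958 higher. These became 2637 and 1814 after quantile normalization, 2557 and 1957 without the 10 most abundant, and 1281 and 1135 with only the 6 libraries compared. They were 1881 and 1193 with no filter, 1849 and 1483 without the trend, and 1728 and 1567 with array weights. Where limma gave 0 with all libraries, between 8 and 10 members were lower and 2 were higher at an unadjusted p under 0.05. The cause of these changes was not tested.

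Replicate pairing was unsettled: between groups, same-numbered deviations correlated at -0.04 to 0.09, overlapping others at -0.06 to 0.04. Own numbers were highest in 3 of 18 comparisons, all CUR50 with CUR0. With the replicate block the members' counts were 86, 15 and 1 in the comparison order above. Over all tested transcripts, 1127 were then lower in CUR0 against Control and 68 higher in CUR50 against CUR0. In CUR50 against Control, 1537 were lower and 1219 higher.

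After median-of-ratios scaling, the left-out share for Control replicate 2 went from 97.4% to 93.3%, for CUR0 replicate 2 from 93.8% to 87.1% and for CUR50 replicate 2 from 81.4% to 70.8%. The shares over all transcripts fell too, from 48.7% to 34.9%, from 38.5% to 18.3% and from 57.5% to 35.2% in the same order. With the filter of 5 TPM, 71.2% of partners were lowest in CUR0, against 48.3% of all others. The differences of the named transcripts kept their direction, which the rule had set, in all refits tried, including settings added after seeing the data. The refitted differences were counted for each named transcript, comparison and setting. Of these, 145 moved by less than the spread between libraries and 7 by more, 4 of the 7 with a pseudocount of 0.1. The 145 are no measure of stability, because some of the settings cannot move the difference. Those settings changed only the filter, trend, weights or block, or left out libraries not compared. Unknown depth limits every value, most of all those under a few TPM.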
